A study of Rattus norvegicus with 4 samples.

Results

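Genes of G protein and second messenger signalling were followed in rat vestibular ganglion neurons sorted by calretinin, a calcium-binding protein. The members were chosen by name: every array probe with a single platform symbol of a muscarinic receptor, a G protein subunit, a regulator of G protein signalling (RGS), an adenylyl or guanylyl cyclase, neuronal nitric oxide synthase, a phosphodiesterase, a protein kinase A, C or G, an A-kinase anchoring protein, a phospholipase C or a calmodulin-dependent kinase. Of the 35126 probes on the array, whose single symbols name 12111 genes, 208 matched, for 152 genes, and 180 of them, for 128 genes, lay where the table pairs names with values. The 28 others were not read, and with them 24 genes dropped out entirely, among them Gnaq, Gnai2, Chrm5, Prkca, Adcy3, Adcy6, Rgs2 and Rgs8.

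The tested libraries carry the title calretinin-positive, cells that the series' design text gives as afferents ending in calyces. They were set against libraries titled calretinin-negative, given there as dimorphic and bouton afferents. Each group had 2 one-colour (Cy5) arrays of total RNA from pooled cells caught by laser capture under immunofluorescence; the strain, age and number of rats were not stated in the labels. Both groups carry the same description, that of positive cells, so groups are called by their titles. Calretinin itself, Calb2, had an intensity of 291 and 328 in libraries labelled positive, against 138 and 129 in those labelled negative, which goes with the titles and checks only the sort.

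In this pathway a receptor such as the muscarinic acetylcholine receptor activates a heterotrimeric G protein, whose alpha subunit steers adenylyl cyclase or phospholipase C. The products cyclic AMP, cyclic GMP, diacylglycerol and calcium act through protein kinases, phosphodiesterases remove the cyclic nucleotides, and RGS proteins speed the return of the alpha subunit to rest. In the vestibular periphery, efferent neurons release acetylcholine onto hair cells and afferents, where muscarinic receptors are known to act through potassium channels of the KCNQ family.

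Over the whole array 21070 probes were bright enough to test (mean log2 intensity at or above the 40th percentile, an intensity of 0.457), and 113 of the 180 signalling probes, for 93 genes, were among them. In the libraries labelled positive 44 of these were called higher and 29 lower, and 40 were not called (limma, adjusted p under 0.05). That is 64.6% called, against 64.6% of all tested probes. The shares by direction, 38.9% higher and 25.7% lower, also stood near those of all probes, 40.9% and 23.7%. At least 2-fold calls numbered 21, with 11 higher and 10 lower, or 18.6% against 15.4% of all tested probes, of which 8.30% were higher and 7.07% lower. The groups did not overlap for 97 of the 113, where 81.7% of all tested probes did not. The median log2 change was 0.12 for the signalling probes and 0.11 for all probes. These shares lie near the background, so nothing is read from them about the family as a whole, and the results concern single genes.

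Quantile and cyclic loess normalization, which bring the median of all probes to 0.01 and -0.01, left 36 higher with 34 lower and 37 higher with 37 lower among the signalling probes. Of all probes 62.2% (33.2% higher, 29.0% lower) and 64.5% (32.0% higher, 32.5% lower) were then called. With no filter on dim probes 80 of the 180 probes were called, or 44.4% against 41.3% of all, and 33 at least 2-fold, where 14.0% of all were. With the filter at the 60th percentile 12 of 75 were called at least 2-fold, where 11.1% of all were. Testing each probe on its own spread called 41 of 113, or 36.3% against 33.7% of all (21.4% higher, 12.3% lower). The share of the signalling calls that were higher, 60.3%, became 51.4% with quantile and 50% with cyclic loess normalization. Changes under about 0.3 on the log2 scale thus have no settled direction. With only the names of the early part of the array, which need no moved rows, 51 probes were tested, 16 higher and 15 lower. The labels do not say whether the 2 arrays of a group hold RNA of different rats or captures, and the p-values cover only the variation from array to array, possibly a technical one. Bulk RNA cannot tell fewer cells of a type from less RNA per cell.

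**Figure D1:**
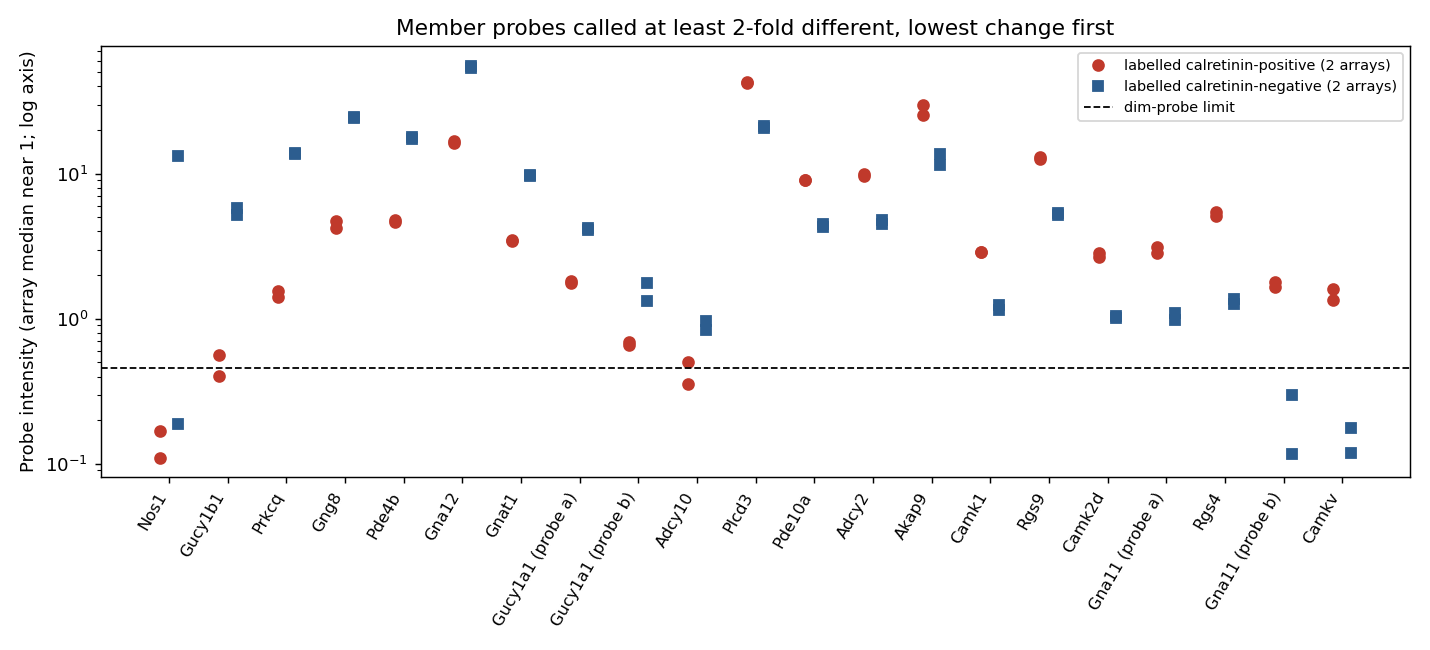
Intensity on each array (y axis, log scale, array median near 1) for the 21 signalling probes called at least 2-fold different, ordered by change; circles are the 2 arrays labelled calretinin-positive and squares the 2 labelled calretinin-negative, and the dashed line is the dim-probe limit of 0.457. The 2 arrays of a group lie furthest apart for Nos1, whose 2 squares are at 0.188 and 13.3. The dimmer Gna11 probe also has separate squares, at 0.117 and 0.300. Levels of different probes are not on a common scale.

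The promoters of the genes were searched for the elements that answer these messengers, the cyclic AMP response element (CRE, TGACGTCA) and the phorbol ester response element bound by AP-1 (TRE, TGAGTCA), on both strands of the 250 bases before the start. RefSeq promoters of build GRCr8 were at hand for 105 of the 128 genes. The CRE was found in 3 (2.86%, against 1.59% of all 33469 promoters) and the TRE in 7 (6.67%, against 4.05%). The holders were Akap17a, Gnao1 and Nos1 for the CRE and Gnb2, Gng12, Nos1, Pde6b, Prkcel1, Rgs12 and Rgs17 for the TRE. Shown here are the windows of the 3 holders called with every tested probe in 1 direction, with the element in capitals and up to 25 bases on either side. They lie at chr19:11198526-11198583 (minus strand, Gnao1), chr14:80034981-80035037 (minus, Rgs12) and chr6:13929545-13929601 (plus, Prkcel1).
Gnao1: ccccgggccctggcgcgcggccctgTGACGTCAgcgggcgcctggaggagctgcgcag
Rgs12: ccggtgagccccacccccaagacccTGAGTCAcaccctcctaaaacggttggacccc
Prkcel1: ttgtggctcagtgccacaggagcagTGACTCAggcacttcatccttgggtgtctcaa
Of these genes Gnao1 and Prkcel1 were higher in the libraries labelled positive and Rgs12 was lower there. A match in letters is a description and shows no binding.

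At the head of the pathway, the muscarinic receptors, Chrm3 was the receptor that could be tested. It couples to the Gq family, and its probe read 2.87 and 2.81 in the libraries labelled positive, against 2.20 and 2.23 in those labelled negative. Chrm3 was 1.28-fold higher (log2 change 0.36 ± 0.08, SE; adjusted p = 0.00271), without overlap and also after either normalization. The 2 probes of Chrm1 and the probes of Chrm2 and Chrm4, the other receptors read, lay between 0.0852 and 0.278 on all 4 arrays, below the dim-probe limit, so no difference was detectable there.

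Among the G alpha subunits, which carry the signal from the receptor, 10 of 15 tested probes rose, 4 fell and 1 was not called in the libraries labelled positive; 9 rose and 3 fell with quantile and 8 rose and 4 fell with loess normalization. Of all tested probes 40.9% were higher and 23.7% lower, and 33.2% and 32.0% were higher after those normalizations; counts by role and list are descriptions, and none was tested against that background. Gna11, a Gq family subunit that activates phospholipase C beta, was higher with both of its probes. One had 2.84 and 3.10 against 1.10 and 0.986, a 2.85-fold difference (adjusted p = 6.25e-07). The other had 1.67 and 1.80 against 0.117 and 0.300, where the libraries labelled negative fell below the dim-probe limit (adjusted p = 2.58e-05). Neither pair of groups overlapped.

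The subunits of the inhibitory family were mixed. Gnao1, the abundant Go subunit of neurons whose promoter window is shown above, had 11.4 and 11.1 in the libraries labelled positive, against 7.88 and 7.11 in those labelled negative with one probe. A further probe of Gnao1 had 5.57 and 4.90 against 3.53 and 3.27. The log2 changes, 0.59 ± 0.07 and 0.62 ± 0.09 (SE), were close to each other. Gnai1, a Gi subunit, had 3.26 and 3.28 against 2.26 and 2.25 with one probe (log2 change 0.54, adjusted p = 0.000147). A dimmer Gnai1 probe had 0.780 and 0.624 against 0.489 and 0.422, a negative mean below the dim-probe limit (adjusted p = 0.0381), and with no filter on dim probes it was not called (adjusted p = 0.077). A Gnai1 call was also lost without positive replicate 1, without negative replicate 2 and with each probe on its own spread. Gnai3 had 0.843 and 0.740 against 1.09 and 0.984 (log2 change -0.39, adjusted p = 0.0486) and lost its call when any array but positive replicate 1 was left out. Gnaz, the Gz subunit of the same family, had 2.81 and 2.54 against 3.36 and 3.31 with one probe (log2 change -0.32, adjusted p = 0.00592) and 20.2 and 19.3 against 16.4 and 18.0 with another (log2 change 0.20, adjusted p = 0.0324), whose call was lost after either normalization.

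Of the stimulatory subunits, Gnal, the Golf subunit known from olfactory neurons and striatum, had 31.4 and 34.1 in the libraries labelled positive, against 16.4 and 18.6 in those labelled negative (1.87-fold higher, adjusted p = 3.66e-06). Gnas, the Gs subunit and the brightest probe of the role, had 101 and 107 against 79.4 and 78.6 (1.31-fold, adjusted p = 0.000638); it was not called after loess normalization (adjusted p = 0.119). Outside the stimulatory subunits, Gnat1, the transducin subunit of rod photoreceptors, had 3.44 and 3.52 against 9.75 and 9.71, a 2.79-fold lower level (adjusted p = 3.50e-08).

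The probes of Gna12, a further alpha subunit, gave opposite answers. Its brighter probe had 16.4 and 16.8 in the libraries labelled positive, against 53.8 and 55.7 in those labelled negative, 3.30-fold lower (adjusted p = 1.14e-08). Its dimmer probe had 1.43 and 1.43 against 0.880 and 0.881, 1.63-fold higher (adjusted p = 0.000581). Both pairs of groups were without overlap, so the direction of Gna12 depends on the probe.

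Of 10 tested G beta and gamma probes, subunits that anchor the complex and signal in their own right, 4 rose, 3 fell and 3 were not called; after either normalization 2 rose and 4 fell. Gng8, a gamma subunit known from olfactory and vomeronasal neurons of rodents, changed most, with 4.75 and 4.19 in the libraries labelled positive, against 24.6 and 24.1 in those labelled negative. Gng8 was 5.45-fold lower (log2 change -2.45 ± 0.08, SE; adjusted p = 2.93e-09). Gng2, a widespread gamma subunit, had 10.9 and 10.5 against 16.2 and 15.03 (log2 change -0.54, adjusted p = 6.19e-05). Gnb1, the brightest probe of the role, had 119 and 123 against 103 and 92.9 (log2 change 0.31, adjusted p = 0.00437) and was not called after either normalization.

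Gnb5 is the atypical beta subunit that pairs with RGS proteins of the R7 family (Rgs6, Rgs7, Rgs9 and Rgs11) in place of a gamma subunit. It had 28.6 and 25.6 in the libraries labelled positive, against 15.6 and 13.8 in those labelled negative (1.84-fold higher, adjusted p = 6.05e-06). Its R7 partners did not share 1 direction. Rgs11 had 2.24 and 2.44 against 1.68 and 1.56 (log2 change 0.53, adjusted p = 0.000716), and Rgs7 had 3.01 and 2.78 against 3.15 and 3.26 (log2 change -0.15, adjusted p = 0.139). Rgs9 was higher with one probe (13.1 and 12.5 against 5.21 and 5.40, log2 change 1.27) and lower with another (3.45 and 3.75 against 4.99 and 4.16, log2 change -0.34), that lower call being lost without negative replicate 1. Rgs7bp, the membrane anchor of these complexes and the brightest probe among the RGS genes, had 20.6 and 21.2 against 24.1 and 27.3 (log2 change -0.30, adjusted p = 0.00597), and it was not called without negative replicate 2 (adjusted p = 0.0552).

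Across all 14 tested RGS probes 5 rose, 5 fell and 4 were not called. Rgs4, which acts on Gi/o and Gq subunits, was higher with both probes, 5.13 and 5.41 in the libraries labelled positive against 1.27 and 1.37 in those labelled negative with one (4.01-fold, adjusted p = 2.05e-08) and 18.9 and 18.3 against 11.3 and 11.8 with the other (1.62-fold, adjusted p = 6.92e-06). Rgs12, a large scaffold of the family with its promoter window shown above, was lower with both, 9.03 and 8.96 against 13.8 and 14.0 (adjusted p = 1.22e-05) and 8.61 and 9.59 against 13.2 and 11.5 (adjusted p = 0.00101). All 4 of these comparisons were without overlap. Rgs5, also a pericyte marker, had 2.20 and 1.91 against 1.94 and 1.87 and was not called (adjusted p = 0.379).

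**Figure D2:**
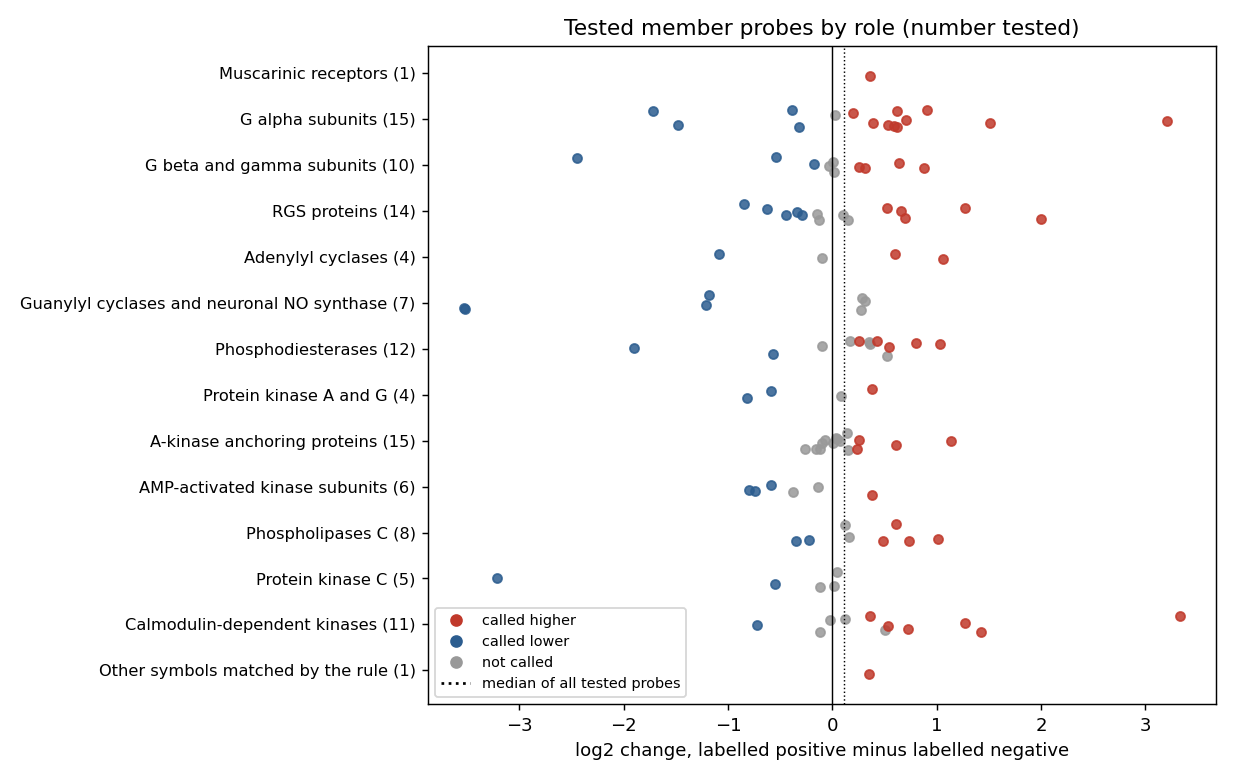
Log2 change (x axis, libraries labelled positive minus libraries labelled negative) of the 113 tested signalling probes, 1 point each, by role (y axis, number of tested probes in brackets); colours mark calls, the solid line is 0 and the dotted line the median of all tested probes, 0.11. The 7 probes of guanylyl cyclases and neuronal NO synthase have 4 lower calls and 0 higher, and G alpha subunits have 10 higher and 4 lower. Those 4 lower calls include 2 probes of Gucy1a1 and a Nos1 probe whose call rests on negative replicate 2 alone.

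Adenylyl cyclases make cyclic AMP, with 2 of 4 tested probes higher in the libraries labelled positive and 1 lower; after either normalization 2 rose and 2 fell. Adcy2, a cyclase that G beta-gamma can stimulate, had 9.88 and 9.57 in the libraries labelled positive, against 4.53 and 4.82 in those labelled negative (2.08-fold higher, adjusted p = 4.60e-07). Adcy4, of the same subclass, had 5.70 and 5.59 against 3.68 and 3.79 (1.51-fold, adjusted p = 3.05e-05). Adcy10, the bicarbonate-regulated soluble cyclase, had a mean under that limit in cells labelled positive (0.357 and 0.504 against 0.968 and 0.841, adjusted p = 0.00191). Adcy5, inhibited by Gi and the brightest probe here, had 12.8 and 13.2 against 13.6 and 14.2 (log2 change -0.10, adjusted p = 0.232) and was called lower after quantile and loess normalization (log2 changes -0.265 and -0.276).

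The nitric oxide receptor was the enzyme whose subunits fell together. Soluble guanylyl cyclase makes cyclic GMP when nitric oxide binds, and works as a dimer of the products of Gucy1a1 and Gucy1b1, genes with no other protein-coding gene between them in the GRCr8 annotation. Gucy1b1 had 0.564 and 0.400 in the libraries labelled positive, near the dim-probe limit, against 5.19 and 5.77 in those labelled negative (11.5-fold lower, log2 change -3.53 ± 0.15, SE; adjusted p = 2.24e-08). Gucy1a1 had 1.76 and 1.82 against 4.12 and 4.20 with one probe (2.32-fold lower, adjusted p = 4.09e-07) and 0.657 and 0.692 against 1.77 and 1.32 with another (2.27-fold lower, adjusted p = 0.000107). All 3 probes were without overlap and kept their call and direction after both normalizations. Endothelial and mural markers were lower in the libraries labelled positive with 6 of 8 tested probes and higher with 1. Of these cells, mural ones also hold soluble guanylyl cyclase, and their markers were mixed. Tagln had 2.97 and 2.37 against 6.56 and 7.13. Pdgfrb had 3.67 and 4.05 against 5.39 and 5.10 with its brightest probe (log2 change -0.44), and a dimmer tested one was not called (adjusted p = 0.483). Acta2 was below the dim-probe limit, and the pericyte marker Rgs5 was not called. Pecam1 had 2.35 and 2.25 against 8.79 and 8.66, while the higher probe, of Flt1, had 1.37 and 1.59 against 0.805 and 0.705. A brighter Flt1 probe was called lower, with 5.12 and 5.18 against 6.04 and 5.72 (log2 change -0.19, adjusted p = 0.0343). The part of endothelial and mural cells in this result was not tested.

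Of the membrane guanylyl cyclases tested, Gucy2e had 1.18 and 1.18 in the libraries labelled positive, against 0.945 and 0.954 in those labelled negative (adjusted p = 0.0564), and Gucy2g was not called (adjusted p = 0.357). Nos1, the neuronal nitric oxide synthase, had 0.170 and 0.110 against 0.188 and 13.3 with one probe. This call (adjusted p = 0.0460) rests on negative replicate 2 alone: without that array the probe was too dim to test, and a robust variance prior gave an adjusted p of 0.417. The other probe of Nos1 had 1.37 and 1.71 against 1.25 and 1.27 (log2 change 0.28, adjusted p = 0.082). Of the 7 tested probes of guanylyl cyclases and Nos1, 4 fell and 0 rose, with 3 lower after quantile and 4 after loess normalization. The robust variance prior gave 3 lower and 1 higher.

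Of the cyclic GMP-dependent kinases, Prkg2 had 22.6 and 23.7 in the libraries labelled positive, against 42.4 and 39.0 in those labelled negative (1.76-fold lower, adjusted p = 3.58e-06). Among kinase A subunits, the catalytic subunit Prkaca had 8.81 and 8.05 against 6.24 and 6.73 (log2 change 0.38, adjusted p = 0.00131) and the catalytic subunit Prkacb had 0.676 and 0.600 against 0.988 and 0.933 (log2 change -0.59, adjusted p = 0.0109). The regulatory subunit Prkar1a had 11.88 and 11.002 against 11.29 and 10.27, and its groups overlapped (adjusted p = 0.347). So of 4 tested probes of kinases A and G 1 rose and 2 fell, also after either normalization.

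Anchoring proteins hold kinase A at defined places in the cell, and 4 of 15 tested probes rose while 11 were not called; after either normalization 2 rose and 3 fell. Akap9, of the Golgi apparatus and centrosome, had 29.9 and 25.3 in the libraries labelled positive, against 13.6 and 11.5 in those labelled negative (2.20-fold higher, adjusted p = 3.55e-06). Akap8l, a nuclear member, had 111 and 111 against 71.9 and 73.5 (1.53-fold, adjusted p = 1.95e-05), and its other tested probe was not called (log2 change 0.15, adjusted p = 0.148). Akap12, the brightest probe of the role, had 115 and 125 against 98.2 and 103 (log2 change 0.26, adjusted p = 0.0108), which was -0.0122 after loess normalization, and its other tested probe was not called (log2 change 0.14, adjusted p = 0.124).

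Phosphodiesterases end the cyclic nucleotide signal, and 12 of 28 probes read were bright enough to test, of which 5 rose, 2 fell and 5 were not called; 4 rose and 3 fell with quantile and 5 rose and 3 fell with loess normalization. Pde4b, a cyclic AMP-specific enzyme, had 4.80 and 4.61 in the libraries labelled positive, against 17.9 and 17.2 in those labelled negative (3.73-fold lower, log2 change -1.90 ± 0.07, SE; adjusted p = 7.25e-09). Pde10a, which splits cyclic AMP and cyclic GMP, had 9.01 and 9.02 against 4.48 and 4.32 (2.05-fold higher, adjusted p = 4.25e-07). A dimmer Pde10a probe had 0.649 and 0.727 against 0.477 and 0.602 and was not called (adjusted p = 0.178).

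Of the cyclic GMP-specific enzymes, Pde5a had 1.15 and 1.12 in the libraries labelled positive, against 0.792 and 0.765 in those labelled negative (log2 change 0.55, adjusted p = 0.00649), and Pde9a had 2.50 and 2.07 against 3.44 and 3.32 (log2 change -0.57, adjusted p = 0.000486). These enzymes thus differed in opposite directions. Pde6a, known from rod photoreceptors and the brightest phosphodiesterase probe, had 34.1 and 35.7 against 21.2 and 18.9 (1.74-fold higher, adjusted p = 6.01e-06).

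Phospholipases C split a membrane lipid into diacylglycerol and the calcium-releasing messenger inositol trisphosphate. Of 8 tested probes 4 rose, 2 fell and 2 were not called, with the same numbers after either normalization. Plcd3, a delta isoform, was higher with both probes, 42.7 and 42.0 in the libraries labelled positive against 21.4 and 20.6 in those labelled negative (2.02-fold, adjusted p = 4.15e-07) and 2.08 and 2.18 against 1.22 and 1.34 (1.67-fold, adjusted p = 0.000104). Plcb4, an effector of Gq, had 62.2 and 61.9 against 41.7 and 39.5 (1.53-fold, adjusted p = 2.02e-05). Plcg1, the isoform of receptor tyrosine kinases, had 141 and 141 against 102 and 99.7 with its brighter probe (1.40-fold, adjusted p = 0.000114) and was not called with the other (adjusted p = 0.094). Plcd4 had 7.15 and 6.98 against 9.27 and 8.79 (log2 change -0.35, adjusted p = 0.00102).

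Many, but not all, protein kinase C isoforms answer to diacylglycerol, and the conventional ones also to calcium. Of 5 tested probes 2 fell, none rose and 3 were not called; after either normalization 3 fell. Prkcq, the theta isoform known from T cells and skeletal muscle, had 1.54 and 1.42 in the libraries labelled positive, against 13.8 and 13.8 in those labelled negative (9.31-fold lower, log2 change -3.22 ± 0.07, SE; adjusted p = 4.07e-10), the smallest p among the signalling probes. A dimmer Prkcq probe lay at or below 0.148 on all arrays. The eta isoform Prkch had 1.75 and 1.97 against 2.88 and 2.56 (log2 change -0.55, adjusted p = 0.000686). The epsilon, iota and zeta isoforms were not called, with Prkce at 5.18 and 5.22 against 5.07 and 5.01 (adjusted p = 0.604) and Prkci, the brightest, at 11.2 and 11.1 against 11.7 and 12.6 (adjusted p = 0.155). The related symbol Prkcel1, its promoter window shown above, had 7.96 and 7.21 against 5.71 and 6.17 (1.28-fold higher, adjusted p = 0.00239).

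Calmodulin-dependent kinases carry the calcium signal. Of 11 tested probes of these kinases and their partners 6 rose, 1 fell and 4 were not called. With quantile normalization, where 10 were tested, 5 rose and 1 fell, and with loess 6 and 1. The lower probe was not the same one. In the first count it was Camkmt, at 0.532 and 0.311 in the libraries labelled positive, against 0.694 and 0.649 in those labelled negative. The former had a mean below the dim-probe limit (adjusted p = 0.0482). Camkmt was not called after either normalization or with no filter on dim probes, and the lower probe after normalization was Camk2b. Camk2d, the delta subunit of kinase II, had 2.69 and 2.83 in the libraries labelled positive, against 1.05 and 1.01 in those labelled negative (2.68-fold higher, adjusted p = 6.50e-07). Camk1 had 2.87 and 2.89 against 1.14 and 1.25 (2.41-fold, adjusted p = 1.16e-06). Camkv, a kinase-like protein without activity, had 1.59 and 1.35 against 0.178 and 0.120, the last values below the dim-probe limit (adjusted p = 3.35e-06).

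The kinase II inhibitor Camk2n1 was higher as well, with 6.34 and 6.97 in the libraries labelled positive, against 4.19 and 3.88 in those labelled negative (log2 change 0.72, adjusted p = 1.75e-05). Camkk1, which activates kinases I and IV, had 34.5 and 40.4 against 26.2 and 25.4 (log2 change 0.53, adjusted p = 0.000229). The kinase II beta subunit Camk2b, the brightest probe here, had 101 and 89.8 against 105 and 102, close to each other but without overlap (log2 change -0.12, adjusted p = 0.194), and it was called lower after quantile and loess normalization (log2 changes -0.276 and -0.389). Camk4 had 0.595 and 0.637 against 0.566 and 0.692, with overlapping groups.

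Subunits of AMP-activated kinase, an energy sensor that shares the Prk prefix and is no second messenger kinase, were caught by the name rule. Of 6 tested probes 3 fell and 1 rose. The catalytic subunit Prkaa2 had 5.10 and 5.26 in the libraries labelled positive, against 7.90 and 7.63 in those labelled negative (log2 change -0.58, adjusted p = 2.99e-05). A dimmer Prkaa2 probe had 0.596 and 0.534 against 0.594 and 0.649, with overlapping groups (adjusted p = 0.593). The regulatory subunit Prkag1 had 2.14 and 2.39 against 3.95 and 3.62 (log2 change -0.74, adjusted p = 3.59e-05). Prkag2 was lower with one probe (log2 change -0.80) and higher with another (0.38), the higher call being lost after either normalization.

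The reading of names differs between the parts of the array. The values given for Chrm1, Chrm2, Gna11, Gna12, Gnai3, Gnas, Gnaz, Gnat2, Gng8, Gnb1, Gnb5, Rgs7bp, Rgs17, Adcy4, Adcy10, Gucy2g, Prkaca, Prkg1, Akap9, Pde4b, Pde4dip, Pde9a, Prkcq, Prkce, Prkci, Prkcz, Camkv, Camkmt, Camk2b and Camk2n2 come from the early part, where names stand at their own row. For Akap12, Gnao1, Rgs4, Rgs12, Gucy1a1, Plcg1 and Prkag2 a probe of each part was tested. The other genes of the name rule given with values, and Calb2, come from the late part, read 5 table rows after their listed position. Of the pathway genes outside the rule, Grk5, Itpr1, Ppp1r1a, Dgke, Kcnq5, Gpsm1 and the dimmer tested Htr2c probe come from the early part. Grk6, Itpr2, Itpr3, Dgka, Grm4, Kcnj5, Crtc2 and the brighter Htr2c probe come from the late part.

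For 20 genes 2 probes were tested, which allows the reading of one probe to be set against another. Both were higher for 5 genes (Gna11, Gnai1, Gnao1, Plcd3 and Rgs4) and both lower for 2 (Gucy1a1 and Rgs12). For 7 genes 1 probe was called, for 2 none was, and for 4 (Gna12, Gnaz, Prkag2 and Rgs9) the probes were called in opposite directions. Opposite calls thus made up 20% of these genes, and 13.8% of the 1368 genes on the array with 2 to 4 tested probes. Calls resting on 1 probe carry that uncertainty.

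**Figure D3:**
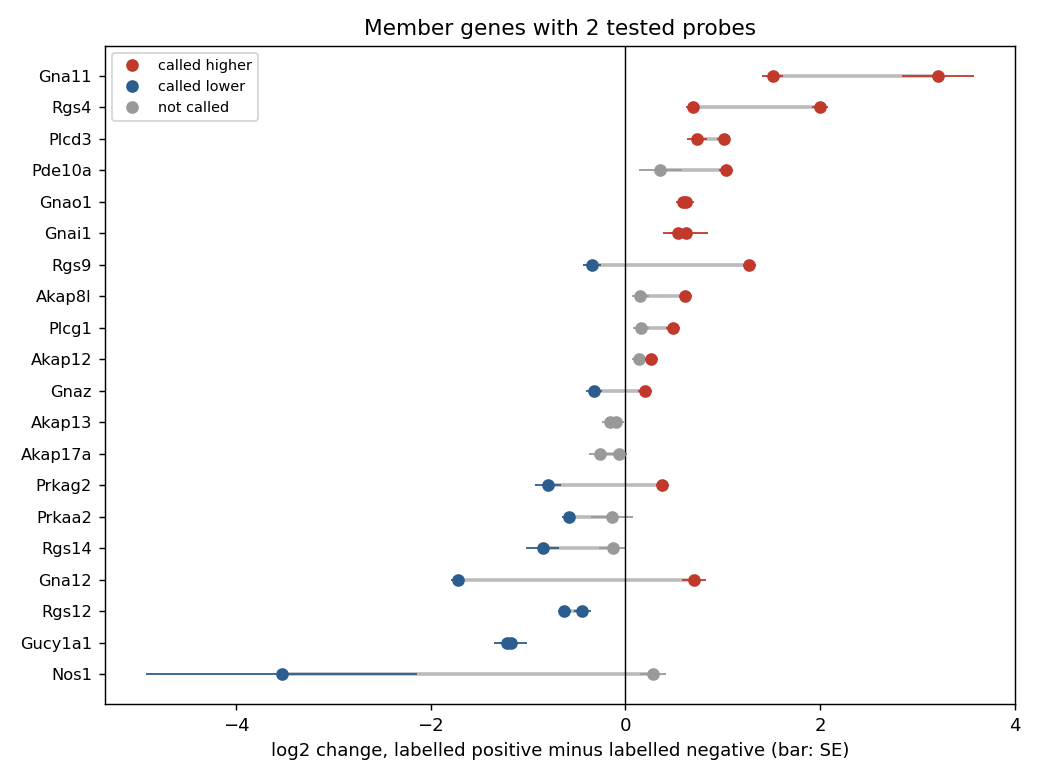
Log2 change (x axis, libraries labelled positive minus libraries labelled negative, bars SE) of each probe of the 20 signalling genes with 2 tested probes (y axis, genes), joined by a grey line and coloured by call. Gna11, Rgs4, Plcd3, Gnao1 and Gnai1 have both points right of 0 in the higher colour, Rgs12 and Gucy1a1 both left in the lower colour, and Gna12, Gnaz, Prkag2 and Rgs9 have called points on either side.

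The filter on mean brightness also set aside probes that were bright in 1 group only. Among the 67 signalling probes not tested, 12 had a group mean above the limit, a selection made after their values were seen. With no filter on dim probes 10 of the 12 were called, where 76.2% of all such probes on the array were; having passed through 1 group, they had to differ, so nothing is read from that count, levels are given with no test, and no fold is given against a group below the limit. Rgs6, of the R7 family, had 0.0316 and 0.132 in the libraries labelled positive, against 2.30 and 2.24 in those labelled negative. Plcb2, a Gq effector known from blood and taste cells, had 0.143 and 0.0662 against 1.25 and 1.25. Gng12 had 0.161 and -0.0369 against 0.978 and 0.905, and Pde12 and Gnat2 were likewise above the limit in the libraries labelled negative alone.

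In the other direction, the cyclic GMP-dependent kinase Prkg1 had 1.40 and 1.28 in the libraries labelled positive, against 0.0299 and 0.222 in those labelled negative. Rgs17, which acts on Gi/o and Gz subunits, had 1.16 and 1.37 against 0.280 and 0.0686. Pde4dip was likewise above the limit in the libraries labelled positive alone, and probes of Prkag2 and Prkar2b in those labelled negative alone. Pde1a and a Camk2g probe also had 1 group mean above the limit but were not called with no filter. For the remaining untested probes both group means were below the limit. Among them, with no filter, dim probes of Prkci, Rgs9 and Camk2n2 were called (adjusted p = 0.0218, 0.0309 and 0.0414). The rest were not called, and at this brightness little can be detected.

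**Figure D4:**
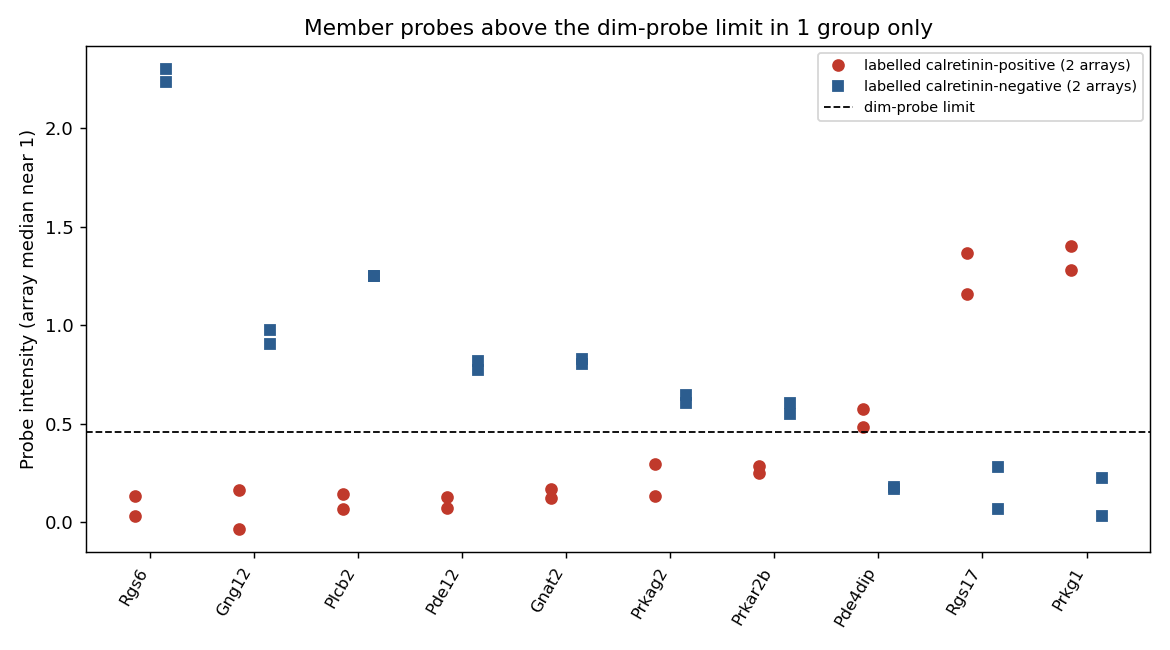
Intensity on each array (y axis, linear scale, array median near 1) of the 10 signalling probes that were set aside for low mean brightness and called with no filter; circles are arrays labelled calretinin-positive, squares arrays labelled calretinin-negative, and the dashed line the dim-probe limit of 0.457. Rgs6 at 2.30 and 2.24 in the libraries labelled negative is the brightest, and Pde4dip, Rgs17 and Prkg1 are above the limit in the libraries labelled positive.

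Genes of the pathway outside the name rule were counted by lists. Receptor kinases and arrestins, which switch receptors off, had 4 of 5 tested probes higher and none lower, also after either normalization, where 40.9% of all tested probes were higher. Grk6 had 17.1 and 15.9 in the libraries labelled positive, against 10.1 and 9.87 in those labelled negative (log2 change 0.73, adjusted p = 6.46e-06), and Grk5 had 1.41 and 1.02 against 0.229 and 0.384, below the limit (adjusted p = 0.00011). Arrb1 and Arrb2, the arrestins, were too dim to test.

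Calcium release channels had 3 of 4 tested probes higher and 1 lower, also after either normalization. The inositol trisphosphate receptor Itpr2 had 3.55 and 3.30 in the libraries labelled positive, against 1.21 and 1.09 in those labelled negative (log2 change 1.57, adjusted p = 2.93e-07), and Itpr1 had 11.7 and 13.2 against 6.61 and 6.44 (log2 change 0.93, adjusted p = 2.04e-06). Itpr3 was the lower one (log2 change -0.57).

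Phosphatases and their regulators had 12 of 17 tested probes higher and 1 lower, which became 6 and 4 after either normalization. Ppp1r1a, an inhibitor of protein phosphatase that kinase A switches on, was higher with both probes, 135.1 and 149.8 in the libraries labelled positive against 51.4 and 49.5 in those labelled negative (log2 change 1.496, adjusted p = 7.29e-08) and 53.0 and 50.4 against 15.3 and 16.6 (log2 change 1.70, adjusted p = 2.07e-08).

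Diacylglycerol kinases and Ras exchange factors had 2 of 11 higher and 2 lower, with Dgke at 3.59 and 3.30 in the libraries labelled positive, against 1.09 and 0.849 in those labelled negative (log2 change 1.84), and Dgka at 65.8 and 71.2 against 45.5 and 37.6 (log2 change 0.73). Other metabotropic receptors had 6 of 21 higher and 5 lower; with loess normalization 4 were higher and 8 lower. The serotonin receptor gene Htr2c had 0.124 and 0.0688 against 2.50 and 2.86 with one probe. A brighter Htr2c probe differed less, with 6.69 and 7.81 against 9.11 and 8.03 (log2 change -0.24, adjusted p = 0.0391), and further ones were too dim to test. The glutamate receptor gene Grm4 had 9.87 and 10.1 against 4.97 and 4.37 (log2 change 1.10). Effector channels had 3 of 6 higher and 1 lower, and 2 and 1 after either normalization, among them Kcnq5, a channel that muscarinic receptors close, at 5.04 and 4.46 against 3.42 and 3.35 (log2 change 0.49, adjusted p = 0.000381), and Kcnj5 (log2 change 0.32).

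The G protein modulator Gpsm1 had a mean under the limit in libraries labelled positive (0.439 and 0.379 against 0.885 and 0.798), and its list had 1 of 2 probes lower. Of the cyclic AMP effectors and transcription factors 1 probe was bright enough to test, Crtc2, which was not called (adjusted p = 0.376); the 4 probes of Creb1 were all too dim.

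Markers of other cell types differed between the same libraries. Lower probes in the libraries labelled positive numbered 5 of 9 tested for Schwann cells and satellite glia (2 higher), 4 of 7 for oligodendrocytes, 5 of 6 for astrocytes, 5 of 7 for blood and immune cells (2 higher) and 3 of 3 for cerebellar and hindbrain neurons. The summed intensity of all probes read was 296 to 308 in the libraries labelled positive against 368 to 382 in those labelled negative for the first list, 209 to 212 against 338 to 347 for oligodendrocytes and 251 to 278 against 441 to 461 for astrocytes. It was 25.6 to 25.8 against 54.1 to 55.2 for endothelial and mural cells, 94.5 to 98.5 against 173 to 183 for blood and immune cells and 151 to 169 against 226 to 235 for the hindbrain list. Hair cell markers summed to 8.41 to 8.75 against 10.3 to 10.4. The sums went the other way for fibroblasts, 181 to 186 against 128 to 136, and for neurons, 723 to 726 against 610.0 to 612. A sum is set by its brightest probes: without Prx the Schwann and satellite glia list summed to 195 and 195 against 177 and 176, and without Ogn the fibroblast list to 62.5 and 70.3 against 74.4 and 79.6, each the other way round. Leaving out the brightest probe was decided on once the sums were known. The other 7 lists kept their direction without their brightest probe. Gfap had 1.10 and 0.991 against 42.8 and 46.2, and Mog 0.985 and 1.01 against 42.0 and 43.8. Olig2, Kdr, Acta2, Zic1, Neurod1 and Myo7a stayed below the dim-probe limit on all arrays.

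Neuron markers had 5 of 8 tested probes higher and 1 lower, 3 and 1 with quantile and 3 and 2 with loess normalization. Nefh rose most, with 3.69 and 4.05 in the libraries labelled positive, against 1.37 and 1.15 in those labelled negative. The lower probe, of Elavl4, had 0.766 and 0.739 against 1.43 and 1.35 (log2 change -0.88, adjusted p = 0.000206), and another Elavl4 probe was not called. The bright probes of Slc17a6 (log2 changes 0.22 and 0.08) and Uchl1 (0.23) changed less. The probe of Snap25 was below the limit on all arrays. Fibroblast markers had 1 of 5 higher and 2 lower, and hair cell markers 1 of 2 lower. The signalling genes lower in the libraries labelled positive include Prkcq, Gng8, Pde4b, Gnat1 and the soluble guanylyl cyclase subunits. With only 2 groups any lower gene goes with any lower marker. In the same way the higher signalling genes go with the higher neuron markers, so this shared direction tells nothing by itself. The part of other cells in the differences of either direction was not tested.

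**Figure D5:**
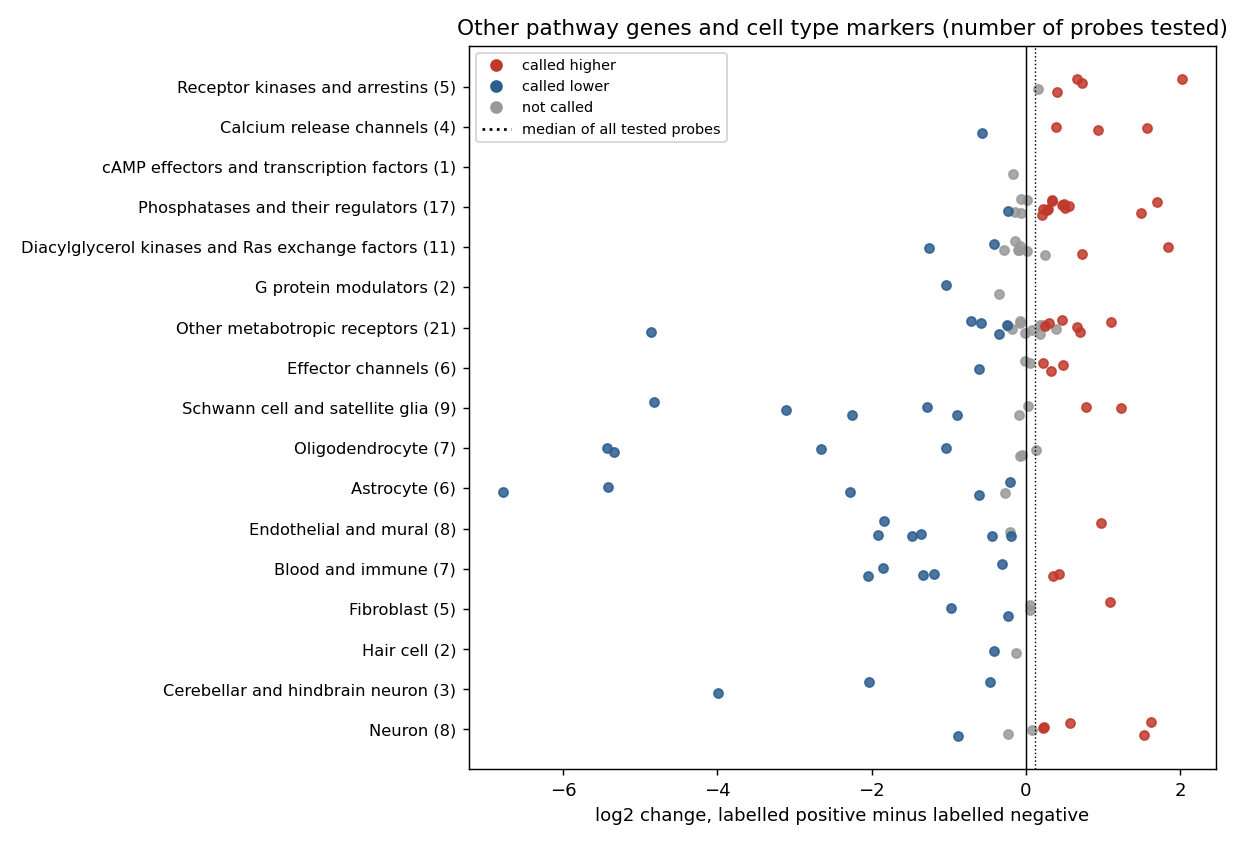
Log2 change (x axis, libraries labelled positive minus libraries labelled negative) of each tested probe of 8 lists of other pathway genes and 9 lists of cell type markers (y axis, number of tested probes in brackets), coloured by call; the dotted line is the median of all tested probes, 0.11. The oligodendrocyte marker Mog and the astrocyte marker Gfap both lie at -5.42, while 4 of 5 receptor kinase probes and 3 of 4 calcium release channel probes are called higher.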

How the data were processed

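The authors' deposited table holds linear probe intensities of 1-colour Cy5 arrays, 2 per group; no scanner, background correction or normalization was stated. Array medians lay between 0.99 and 0.992, so values appear scaled to the median, while centring stays unknown. Entries of -9999 stayed missing (10 to 39 per array, none on a signalling probe). Zero and negative values (532 to 776 per array) were raised to a floor, the lowest percentile of positive values (0.0154 to 0.0181), before log2.

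Symbols came from the platform annotation; RefSeq held the gene IDs of all 180 probes read. Early names were taken at their own row (84 probes) and late names with the value 5 table rows later (96), an offset found in earlier work on this table; probes between were not read. No build is named for the probes.

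Probes at or above the 40th percentile of mean log2 were fitted with limma 3.58.1 in R 4.3.3 (eBayes with a trend, two-sided; Benjamini-Hochberg over all tested probes, threshold 0.05), a step tested on simulated data. A permutation of 2 against 2 arrays cannot go below p = 0.333. A group with a mean below the filter limit is given by level, with no fold. Changes are positive minus negative.

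Named genes were all muscarinic probes; in each other role up to 4 higher and 4 lower probes of at least 2-fold with the smallest p and no overlap, the brightest probe, and all where fewer than 6 could be read; genes whose probes disagree; and the 2 of smallest p in each pathway list. Other genes were added after their values were seen. Members, lists and alternatives were chosen with earlier results of these data known. Alternatives were other normalizations, filters, floors, variance priors, name readings, a replicate block and each array left out. Figures were drawn with matplotlib 3.10.9.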

Additional observations from a re-analysis of the deposited data

How the results depend on the processing

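With each probe tested on its own spread, which leaves few degrees of freedom, calls numbered 7094 over the array in place of 13620, and 26 higher and 15 lower among signalling probes in place of 44 and 29. Akap9 (adjusted p = 0.0584), the dimmer probe of Gna11 (0.0856) and the late probe of Gucy1a1 (0.0719) were among the calls lost. Signalling probes called at least 2-fold different numbered 33 with no filter on dim probes and 12 with the 60th-percentile filter, which tests fewer probes, in place of 21. With only the early names, also fewer probes, 16 were higher, 15 lower and 10 at least 2-fold different. The log2 change of the brighter Gnaz probe, 0.20, was -0.00805 after quantile normalization, and that of Akap12, 0.26, was -0.0122 after loess normalization; neither was then called. None of the 73 signalling calls was made in the opposite direction in any of the 14 refits. Omitting single arrays gave 38 to 45 higher, 23 to 30 lower and 20 to 23 at least 2-fold different signalling probes, and 12527 to 12923 calls over the array; a group of 1 array was given the spread of the pair in the other group. The replicate block gave 45 higher, 29 lower, 21 at least 2-fold different and 13845 calls over the array. Arrays of like number had deviations with r = -0.00241 over 21046 probes, so no shared deviation was seen. This 1 correlation cannot tell whether like-numbered arrays share rats, captures or days, which the labels do not state. Precision is limited by the number of arrays, and signal near the dim-probe limit of 0.457 leaves most muscarinic receptors and many phosphodiesterases untested.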
